A study of Mus musculus with 57 samples.

Results

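The loci of Axin2, Sp5 and Lef1 were described by every listed ChIP-seq and ATAC-seq region that overlapped 3 fixed windows of the mm9 mouse genome. The windows were chr11:108740000-108850000 for Axin2 (110 kb, gene start near 108.782 Mb), chr2:70280000-70345000 for Sp5 (65 kb, gene start near 70.313 Mb) and chr3:130770000-130940000 for Lef1 (170 kb, gene start near 130.813 Mb). They held 380 of the 591931 regions in the 32 lists used, with 115 at Axin2, 127 at Sp5 and 138 at Lef1. The regions were selected on their listed position, and the loci were chosen by gene with the peaks of these data in view, so what follows is a description and carries no test. ATAC-seq gave 203 of the regions, H3K27ac 85, H3K4me3 62, H3K27me3 15 and Ring1b 15, and the 2 input libraries gave 0.

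Canonical Wnt signalling stabilises β-catenin, which enters the nucleus and binds DNA through factors of the TCF/LEF family. Axin2 encodes a scaffold of the complex that degrades β-catenin, Sp5 encodes a zinc-finger transcription factor of the Sp family, and Lef1 encodes a TCF/LEF factor. All 3 genes are widely used direct targets of the pathway, and their products act back on it, which is why they are called feedback targets. In the embryo the pathway acts in the posterior epiblast and primitive streak around gastrulation. Among the marks, H3K4me3 sits at promoters, H3K27ac at active promoters and enhancers, and H3K27me3 together with Ring1b, the catalytic subunit of Polycomb repressive complex 1, at repressed developmental genes, while ATAC-seq marks DNA open to a transposase.

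The cells were mouse epiblast stem cells (EpiSCs), derived from E6.0 embryos after removal of extraembryonic tissue and primitive endoderm, kept with the Wnt secretion inhibitor IWP2 (2 µM), and wild type or carrying a knockout of Wnt3 (Wnt3KO). For stimulation IWP2 was withdrawn and CHIR99021, an inhibitor of the kinase GSK3 that marks β-catenin for degradation, was added at 3 µM, or Wnt3a protein was given at 125 ng/mL for 5 h. Wnt3KO cells gave H3K4me3 and H3K27ac at 0, 6, 12 and 72 h of CHIR99021 (1 library each), H3K27me3 at 0 h (2 libraries), after Wnt3a and at 6, 12 and 72 h, and Ring1b at 0 h (2 libraries), after Wnt3a and at 72 h. The 0 h label reads no stimulation for H3K4me3 and H3K27ac of Wnt3KO cells and IWP2 for their H3K27me3 and Ring1b. Wild-type cells gave H3K27ac at 0 h (1 library) and 24 h (2 libraries) and ATAC-seq at 0 and 48 h (1 library each). ATAC-seq also covered wild-type embryos at E6.0 and E7.2 (2 libraries each) and the posterior part of E7.5 embryos (1 library). The names of individual embryo peaks carry other stages than these labels, and each stage given here is the labelled one. Labels name replicates without saying whether they were separate cultures or litters, and do not say whether Wnt3KO is 1 clone. The number of embryos in a library was not given in the sources used here. Peak lists name no genes, so the labelled cell type could not be checked against markers. Read counts are not part of the lists, which leaves depth unknown, and an absent region may have been missed.

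To show the DNA at the 3 starts, the 250 bases upstream of each RefSeq start are given here 5′ to 3′ on the gene's strand. They come from GRCm38.p6, not from the mm9 build of the peak lists, at chr2:70474673-70474922 (Sp5, plus strand), chr11:108920099-108920348 (Axin2, plus strand) and chr3:131110047-131110296 (Lef1, plus strand, the first of its 4 listed starts). Capitals mark TCF/LEF core motifs in Sp5 and GGGCGG boxes in the other two.
Sp5: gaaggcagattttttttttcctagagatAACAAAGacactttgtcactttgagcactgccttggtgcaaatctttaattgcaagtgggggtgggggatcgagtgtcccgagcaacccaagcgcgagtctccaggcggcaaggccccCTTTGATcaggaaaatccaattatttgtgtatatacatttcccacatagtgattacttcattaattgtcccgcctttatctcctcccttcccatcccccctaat
Axin2: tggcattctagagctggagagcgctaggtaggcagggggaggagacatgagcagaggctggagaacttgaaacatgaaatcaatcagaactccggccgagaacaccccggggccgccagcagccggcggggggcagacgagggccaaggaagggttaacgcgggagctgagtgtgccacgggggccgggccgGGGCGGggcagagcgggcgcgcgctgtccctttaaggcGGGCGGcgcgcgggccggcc
Lef1: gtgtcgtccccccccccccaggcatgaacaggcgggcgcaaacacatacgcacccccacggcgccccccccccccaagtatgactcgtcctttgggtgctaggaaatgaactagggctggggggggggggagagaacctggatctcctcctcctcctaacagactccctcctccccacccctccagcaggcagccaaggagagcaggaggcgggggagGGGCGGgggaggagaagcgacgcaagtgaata
The TCF/LEF core was searched on both strands as any of 4 words, which were CTTTGAA, the related CTTTGAT, the word CTTTGTA and lastly CTTTGTT. The other motif, GGGCGG, was searched on both strands too, and no base of either marked motif was shared with the other. Positions are those of the most upstream base of a match on the gene's strand. Sp5 held 2 TCF/LEF cores, CTTTGTT on the minus strand at 222 bases before the start and CTTTGAT on the plus strand at 104 bases before it, and 0 GGGCGG. Axin2 held 0 cores and 2 GGGCGG (58 and 20 bases before the start), and the Lef1 stretch shown held 0 cores and 1 GGGCGG (32 bases before the start). Of the 3 other Lef1 entries, 2 also held 0 cores and 1 GGGCGG, and the last held 1 core (CTTTGTA on the minus strand, 147 bases before its start) and 0 GGGCGG. Among all 32851 promoter entries of the table, 14.8% held at least 1 core, 1.43% held 2 or more and 32.7% held GGGCGG. The GC content was 46.0% for Sp5, 69.2% for Axin2 and 66.4% for the Lef1 stretch shown (44.8% to 66.4% over its 4 entries), against a median of 52.4% over all entries. A match describes letters and is not evidence of a bound site.

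The positions given by the rule fell on promoter chromatin. The Axin2 start lay inside an H3K4me3 region at 0 h (chr11:108781593-108784288) and so did the Sp5 start (chr2:70312489-70313418). The Lef1 start lay within the open promoter element chr3:130812143-130815703, just upstream of an H3K4me3 region (chr3:130813073-130816167). Each promoter element was open in all 7 ATAC-seq lists. Distances are from these rounded starts, so a site named as downstream may lie within the gene.

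H3K4me3 covered more of all 3 windows at 72 h than at 0 h in Wnt3KO cells. At Axin2 the listed regions covered 2696 bp at 0 h, 5427 bp at 6 h, 5819 bp at 12 h and 9018 bp at 72 h. At Sp5 they covered 2372 bp at 0 h, 4916 bp at 6 h, 5216 bp at 12 h and 8296 bp at 72 h. At Lef1 they covered 4621 bp at 0 h, 4042 bp at 6 h, 5398 bp at 12 h and 8090 bp at 72 h. Axin2 and Sp5 were thus longer at every stimulated time than at 0 h, while Lef1 was shorter at 6 h and longer at 12 and 72 h. Over the whole genome the covered length was 21.2 Mb at 0 h, 18.0 Mb at 6 h, 18.5 Mb at 12 h and 22.2 Mb at 72 h. The lists at 0 and 72 h came from one processing folder and those at 6 and 12 h from another, and the median region length was 1237 and 1230 bp in the first against 930 and 936 bp in the second.

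At Axin2 the added H3K4me3 lay downstream of the start. The promoter region ran from 108781593 to 108784288 at 0 h (2696 bp) and from 108781681 to 108786392 at 72 h (4712 bp), so its upstream edge hardly moved. Another 3 regions at 72 h carried the mark on to 108790991. The promoter region at 6 h was already 4650 bp long (chr11:108781658-108786307), in a list whose regions were shorter than those at 0 h. At 12 h the same stretch was split into 3 regions, the longest of 3622 bp. The region at 72 h was 1.75 times as long as at 0 h. Among the 2216 regions of at least 2 kb at 0 h that were met at 72 h, 1.71% were met by a region more than 1.5 times as long, and the median ratio was 1.03. At 6 h the Axin2 ratio was 1.72, where 4 of 2221 such regions (0.18%) passed 1.5 and the median was 0.75. At 12 h it was 1.34, where 0.315% passed 1.5. The 1.5-fold limit was set after these values had been seen.

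At Lef1 the promoter region also lengthened on its downstream side, from 3095 bp (130813073 to 130816167) at 0 h to 4496 bp (130813112 to 130817607) at 72 h. Its ratio of 1.45 lay at percentile 97.8 of the regions of at least 2 kb. At 6 h it measured 3290 bp (ratio 1.06) and at 12 h 3379 bp (ratio 1.09). Upstream, a pair of short regions of 821 and 705 bp at 0 h was met at 72 h by a single region of 2392 bp (chr3:130809127-130811518). A new region of 831 bp (chr3:130811892-130812722) lay between it and the promoter at 72 h.

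Sp5 began with the weakest H3K4me3 of the 3 promoters. At 0 h its start lay in a region of 930 bp that ranked 15928 of 16287 by p-value, with the strongest regions first, while the Axin2 region ranked 8116 and the Lef1 region 6825 in that list. By the authors' peak caller the fold enrichment over local background was 5.65 at the Sp5 start, 24.7 at Axin2 and 24.4 at Lef1. At 6 h a region of 3389 bp ran downstream from 70313148 to 70316536, and at 72 h one region of 4216 bp (chr2:70312331-70316546) spanned 3 of those at 0 h. A further region of 1530 bp (chr2:70310634-70312163) filled the stretch upstream of the start at 72 h. In the list at 72 h, 8 of the 13 regions in the 3 windows met none at 0 h (Axin2 3 of 4, Sp5 3 of 5, Lef1 2 of 4), where 6.69% of the whole list did. Of the 8 regions at 0 h, 0 were missing at 72 h, where 4.83% of the whole list were.

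**Figure D1:**
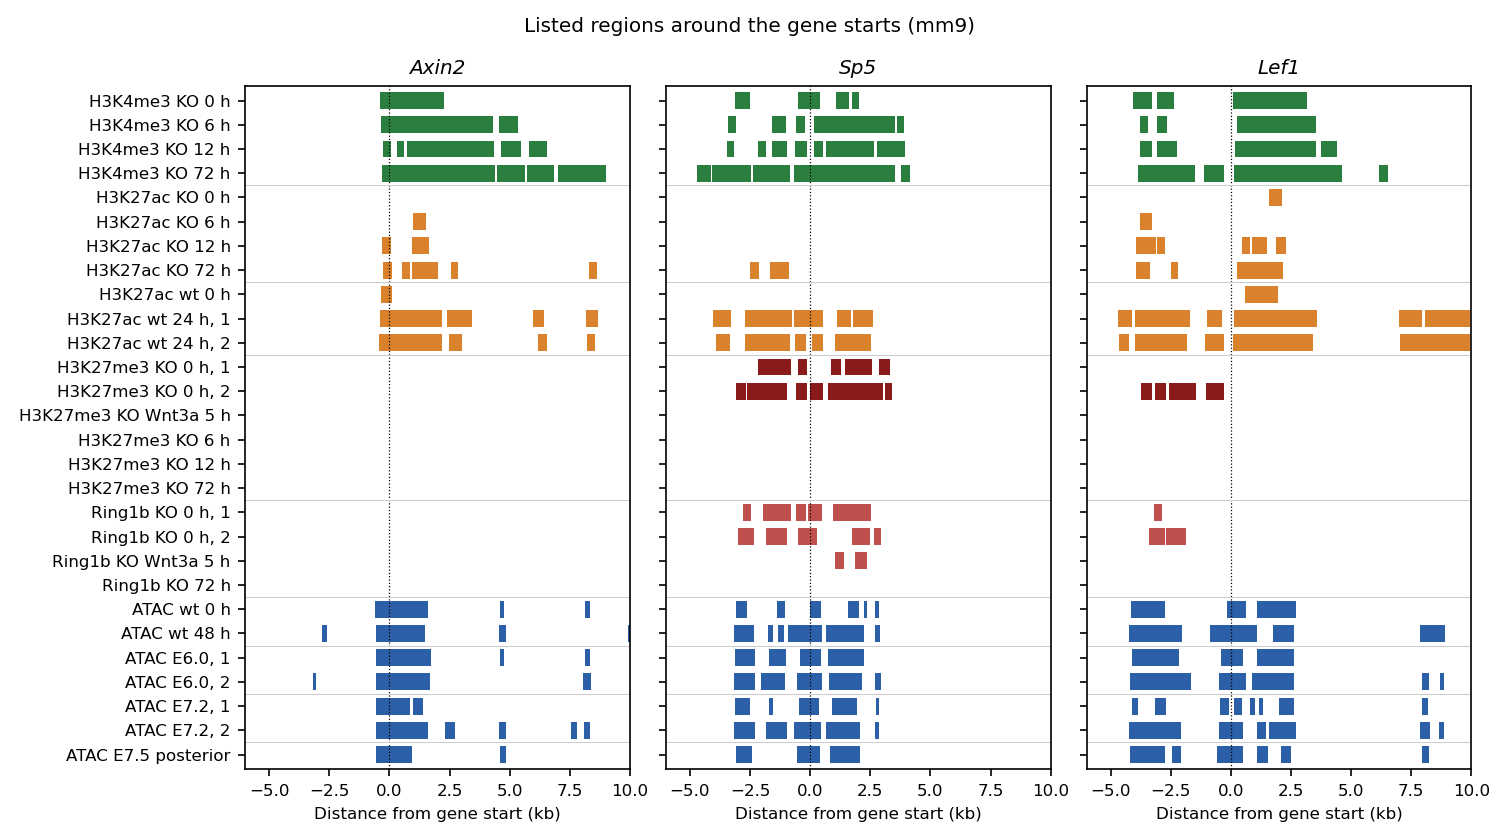
Listed regions from 6 kb upstream to 10 kb downstream of each gene start in every list with a group other than the inputs (KO, Wnt3KO; wt, wild type; a number after a comma is the replicate); the horizontal axis is the distance from the start in kb, each row is a list and each bar a region coloured by mark. H3K4me3 extends downstream of the Axin2 start with time, and H3K27me3 and Ring1b are seen at Sp5 and Lef1 at 0 h and not at Axin2.

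Polycomb marks separated the loci. Axin2 held 0 regions of H3K27me3 and 0 of Ring1b in any list. Sp5 held both marks across its promoter at 0 h in both replicates. Lef1 held Ring1b upstream of its promoter element in both replicates. It held H3K27me3 in the second replicate alone, both there and on the promoter element, which the strongest region (chr3:130811958-130812701) overlapped.

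H3K27me3 at Sp5 covered 3758 bp in replicate 1 and 5631 bp in replicate 2 at 0 h (4.70 ± 1.32 kb, SD, n = 2). The strongest region of replicate 1 (chr2:70310826-70312191, 1366 bp, 1.5 kb upstream) ranked 105 of 4332, in the top 2.42% of its list. Its counterpart in replicate 2 (chr2:70310390-70312035, 1646 bp) ranked 547 of 6236, in the top 8.77%. Downstream of the start lay a region of 1112 bp in replicate 1 (chr2:70314443-70315554) and of 2280 bp in replicate 2 (chr2:70313731-70316010). The remaining regions were 3 in replicate 1 (387 to 471 bp) and 4 in replicate 2 (306 to 516 bp), all within 3.3 kb of the start. Both replicates thus marked either side of the start, and a region just downstream of the start (chr2:70313005-70313520) was listed in replicate 2 alone. At Lef1, replicate 1 listed 0 and replicate 2 listed 4 regions that covered 2791 bp between chr3:130809260 and 130812701, upstream of the start.

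After stimulation no list of H3K27me3 held a region in the 3 windows, at 6, 12 or 72 h of CHIR99021 or 5 h of Wnt3a. All 5 of the regions shared by both replicates at 0 h, all at Sp5, were missing at 72 h, where 58.5% of all 3543 shared regions were. The share of shared regions missing was 59.3% at 6 h, 55.2% at 12 h and 77.6% after Wnt3a, again with 5 of 5 missing at Sp5. The stimulated lists were shorter throughout, with 1012 regions after Wnt3a and 2572 to 3150 under CHIR99021, against 4332 and 6236 at 0 h. With all lists of a comparison kept to equal length, the Sp5 regions that remained to be compared were 4 at 72 h, 3 at 6 h, 4 at 12 h and 1 after Wnt3a, and all of these were missing under stimulation. Of all shared regions at equal length, 49.2%, 43.2%, 44.7% and 41.8% were missing in that order. The lists at 72 h and of replicate 2 came from one folder, and between them 10 of 10 regions were missing (Sp5 6, Lef1 4), where 70.2% of replicate 2 was. The lists of Wnt3a and replicate 1 came from another, and between them 5 of 5 were missing, where 80.2% of replicate 1 was. The lists at 6 and 12 h came from a folder that held neither replicate of 0 h. Stimulation and folder cannot be told apart at those times.

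Ring1b at Sp5 covered 4107 bp in replicate 1 and 3388 bp in replicate 2 at 0 h (3.75 ± 0.51 kb, SD, n = 2), in 5 regions each. The strongest of replicate 1 lay downstream of the start (chr2:70313936-70315526, 1591 bp, rank 115 of 1605), and the strongest of replicate 2 lay upstream (chr2:70311163-70312023, 861 bp, rank 507 of 1783). At the start itself, replicate 1 listed chr2:70312911-70313497 (587 bp, rank 308) and replicate 2 chr2:70312487-70313285 (799 bp, rank 925). The other Sp5 regions were 3 in each replicate, of 305 to 1158 bp. At Lef1, replicate 1 listed 1 region (chr3:130809798-130810125, 328 bp, rank 1473 of 1605). Replicate 2 listed chr3:130809579-130810267 (689 bp, rank 1093 of 1783) and chr3:130810313-130811124 (812 bp, rank 228).

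After 5 h of Wnt3a, Ring1b had 2 regions at Sp5, both downstream of the start and inside the strongest region of replicate 1. They were chr2:70314047-70314404 (358 bp, rank 1358 of 2244) and chr2:70314854-70315377 (524 bp, rank 836), and together they covered 882 bp. Of the 6 regions shared by both replicates at 0 h, 5 were missing after Wnt3a (Sp5 4 of 5, Lef1 1 of 1), where 9.24% of all 1126 shared regions were. That list was the longest of the 4 for Ring1b, and at equal length the count stayed at 5 of 6, against 14.3% of the shared regions. With 1 library at 0 h left out it was 6 of 7, against 28.6%, without replicate 1, and 5 of 6, against 18.6%, without replicate 2, whose folder differs from that of the Wnt3a list. At 72 h of CHIR99021 all 6 were missing, where 72.9% of shared regions were. The list at 72 h held 604 regions and covered 0.324 Mb, against 1.42 and 1.49 Mb at 0 h. At equal length 0 of the Sp5 or Lef1 regions stayed in both 0 h lists, so the loss at 72 h could not be compared there.

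H3K27ac in Wnt3KO cells was sparse at 0 h, with 1 region in the 3 windows, and Sp5 was the last locus to be listed. At Axin2 the listed regions covered 0 bp at 0 h, 541 bp at 6 h, 1055 bp at 12 h and 2747 bp at 72 h. At Sp5 they covered 0 bp at 0, 6 and 12 h and 1126 bp at 72 h. At Lef1 they covered 551 bp at 0 h, 511 bp at 6 h, 3256 bp at 12 h and 2810 bp at 72 h. Axin2 was thus covered from 6 h on, Sp5 at 72 h alone, and Lef1 most at 12 h. Over the genome the covered length was 7.74, 5.43, 6.79 and 6.63 Mb at 0, 6, 12 and 72 h. The list at 12 h held 11636 regions and that at 72 h 10161, from different folders. A Lef1 region of 604 bp at 12 h ranked 10419, past the length of the list at 72 h. Without that region Lef1 was covered less at 12 h than at 72 h, so no order of these 2 times is read.

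The early Axin2 region lay 1.2 kb downstream of the start (chr11:108782972-108783512, 541 bp) and ranked 393 of 10225 at 6 h, in the top 3.84% of that list. At 12 h its counterpart (chr11:108782934-108783626, 693 bp) ranked 537 of 11636, in the top 4.61%. At 72 h it was 1114 bp long (chr11:108782925-108784038) and ranked 5055 of 10161. The lists differ in length and folder, so no change is read from these ranks. The Lef1 region of 6 h lay 3.5 kb upstream (chr3:130809228-130809738, 511 bp, rank 4991) and overlapped a Ring1b region of replicate 2 at 0 h. At 12 h Lef1 listed 7 regions, among them one 25.0 kb and one 8.0 kb upstream. Between 0 and 72 h, both lists from one folder, 10 of the 11 regions at 72 h were new (Axin2 6 of 6, Sp5 2 of 2, Lef1 2 of 3), where 17.4% of the whole list were. The 1 region at 0 h was met at 72 h, where 30.4% of the list at 0 h was lost. With a −log10 q of at least 5 required, 7 of 8 regions were new, where 16.5% of the list was, and 3 of the Axin2 regions were left, all 3 new.

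In wild-type cells H3K27ac covered all 3 loci at 24 h. At Axin2 it covered 475 bp at 0 h and 8980 and 8287 bp in the 2 libraries at 24 h (8.64 ± 0.49 kb, SD, n = 2). At Sp5 it covered 0 bp at 0 h and 10295 and 10206 bp at 24 h (10.25 ± 0.06 kb). At Lef1 it covered 3533 bp at 0 h and 11290 and 10802 bp at 24 h (11.04 ± 0.35 kb). The lone library at 0 h lay below both of those at 24 h at every locus, by far more than they differed from each other. With all H3K27ac lists kept to the length of the shortest, the libraries at 24 h covered 2.59 kb each at Axin2, 5.26 and 5.44 kb at Sp5 and 8.59 and 9.88 kb at Lef1. The lists at 24 h held 29056 and 27422 regions over 27.3 and 25.4 Mb, against 14453 regions over 11.0 Mb at 0 h. Stimulation and processing folder cannot be told apart here, since the list at 0 h came from another folder.

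Of the 28 regions shared by both libraries at 24 h, 24 met none at 0 h (Axin2 9 of 10, Sp5 10 of 10, Lef1 5 of 8), where 59.1% of the 24293 shared regions did. At equal length the count was 13 of 17 (Axin2 2 of 3, Sp5 7 of 7, Lef1 4 of 7), where 35.5% of shared regions met none. Of the 6 regions at 0 h, 2 were missing at 24 h, both at Lef1 (chr3:130884852-130885353 and chr3:130885613-130886310, 72.1 and 73.0 kb downstream), where 14.5% of the list at 0 h was.

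The Axin2 promoter region of wild-type cells grew from 475 bp at 0 h (chr11:108781637-108782111) to 2593 bp in the first library at 24 h (chr11:108781589-108784181, rank 2556 of 29056) and 2589 bp in the second (rank 2647 of 27422). The other Axin2 regions at 24 h were new. They included a pair 23.4 and 22.3 kb upstream (chr11:108758168-108759050 and chr11:108759284-108760146 in the first library), with a short gap between them. Downstream they lay at 2.9, 6.2, 8.4, 41.3, 52.8, 66.1 and 67.2 kb, with lengths from 440 to 1181 bp and ranks from 11108 to 27774 in the first library. The region at 41.3 kb measured 1181 and 1437 bp in the 2 libraries (chr11:108822671-108823851 in the first). In Wnt3KO cells at 72 h a region of 309 bp overlapped it (chr11:108823573-108823881), near the bottom of its list at rank 10023 of 10161.

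At Sp5 the H3K27ac of 24 h covered the promoter, where Wnt3KO cells carried Polycomb marks at 0 h, and reached 31.8 kb upstream. The strongest region of the window was distal (chr2:70281887-70283991, 2105 bp, 30.1 kb upstream, rank 4933 of 29056 and, in the second library, 5417 of 27422). Next to it lay chr2:70280651-70281803 (1153 bp, rank 10738), 31.8 kb upstream and close to the end of the window. Regions of 527, 620 and 517 bp followed 25.6, 18.7 and 18.0 kb upstream in the first library, and the second listed all of these and 1 more of 318 bp. Around the start lay chr2:70310304-70312228 (1925 bp, rank 7795) and chr2:70312314-70313548 (1235 bp, rank 7986), with 3 shorter ones of 603 to 851 bp. Of the 10 new Sp5 regions, 4 overlapped H3K27me3 of Wnt3KO cells at 0 h in replicate 1 and 4 did in replicate 2.

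At Lef1 the strongest new region lay 9.0 kb downstream of the start (chr3:130821063-130822958, 1896 bp), with a smaller one beside it (chr3:130819996-130820942, 947 bp, 7.5 kb). It ranked 1959 of 29056, in the top 6.74%. The second library listed both as 1 region (chr3:130820038-130822950, 2913 bp), which ranked 1833 of 27422, in the top 6.68%. It stood above the promoter region of the same list (chr3:130813144-130816570, 3427 bp, rank 3887 in the first library and 2791 in the second). A further region of 2309 bp lay 2.8 kb upstream (chr3:130809005-130811313, rank 3970), with flanking ones of 585 and 647 bp at 4.4 and 0.7 kb. Of the 5 new Lef1 regions, 2 overlapped H3K27me3 of replicate 2 at 0 h. Over the 3 loci 6 of 24 new regions did, where 4.97% of all new regions did, and 4 of 24 overlapped replicate 1, where 2.99% did. The Lef1 regions 25.0 and 8.0 kb upstream were listed at 0 h as well.

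Of the 24 regions new at 24 h in wild-type cells, 5 overlapped H3K27ac of Wnt3KO cells at 72 h (Axin2 3, Sp5 1, Lef1 1), where 12.2% of all new regions did. The cells differ in genotype, time and folder, which cannot be told apart.

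**Figure D2:**
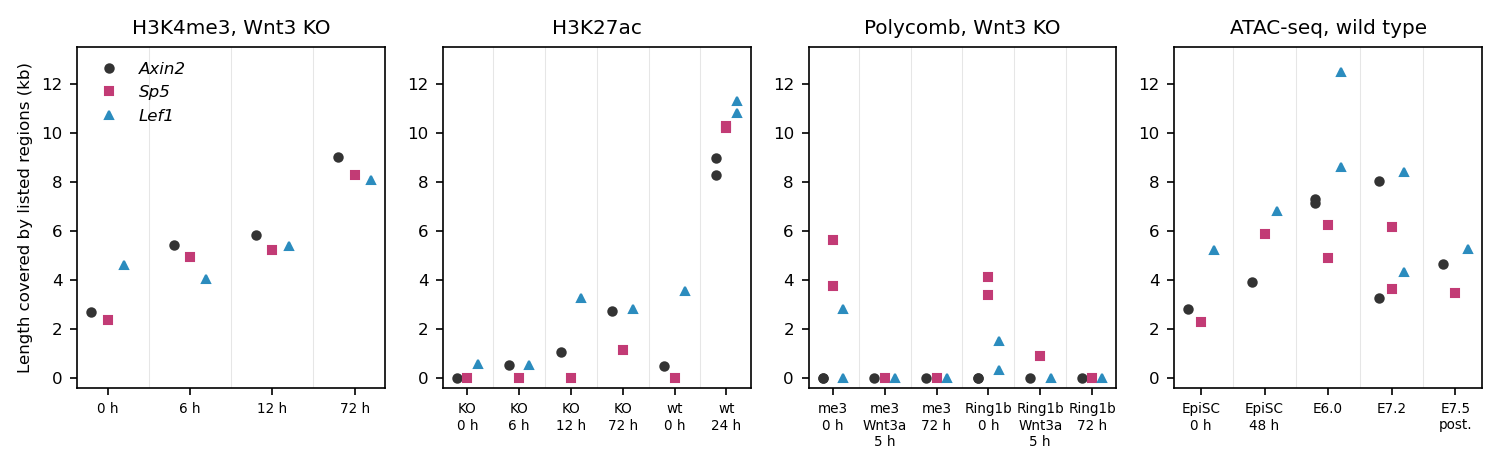
Length of each window covered by listed regions, in kb, by mark, cell type and time (KO, Wnt3KO; wt, wild type; me3, H3K27me3), with 1 point for each library and locus; points at 0 mean that no region was listed. H3K4me3 at 72 h lies between 8090 and 9018 bp at all 3 loci, and H3K27ac of wild-type cells is highest at 24 h.

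Open chromatin in wild-type EpiSCs covered more of each window at 48 h of CHIR99021 than at 0 h. It covered 2800 bp at 0 h and 3916 bp at 48 h at Axin2, 2274 and 5866 bp at Sp5, and 5213 and 6793 bp at Lef1. Over the genome the list at 48 h covered 24.3 Mb and that at 0 h 26.7 Mb. The 2 lists came from different folders, so stimulation and folder cannot be told apart. In all, 9 of 24 regions at 48 h met none at 0 h (Axin2 5 of 8, Sp5 3 of 9, Lef1 1 of 7), where 27.5% of the list did. Of 17 regions at 0 h, 2 were missing at 48 h, where 33.8% of the list was. They lay 8.2 kb downstream of the Axin2 start (chr11:108790124-108790358) and 34.4 kb downstream of the Lef1 start (chr3:130847272-130847431).

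At the promoters the region at Axin2 was of similar length at both times, and those at the Sp5 and Lef1 starts were longer at 48 h. The Axin2 promoter region measured 2201 bp at 0 h (rank 4768 of 41309) and 2070 bp at 48 h (rank 2965 of 38032). At the Sp5 start a region of 423 bp at 0 h (chr2:70313010-70313432, rank 20811) was met by one of 1420 bp at 48 h (chr2:70312079-70313498, rank 7924). At the Lef1 start a region of 776 bp (chr3:130812846-130813621) was met by one of 1948 bp (chr3:130812143-130814090). Another region of the same promoter element was shorter at 48 h, with 1613 bp at 0 h (chr3:130814091-130815703) and 865 bp at 48 h (chr3:130814741-130815605). Lef1 also held an open stretch 3.0 kb upstream, of 1411 bp at 0 h (chr3:130808860-130810270) and 2212 bp at 48 h (chr3:130808749-130810960). Ring1b regions of Wnt3KO cells at 0 h overlapped it in both replicates. The strongest Lef1 one of replicate 2 (chr3:130810313-130811124) began past the end of the open stretch at 0 h.

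Among the new open regions, the one downstream of the Lef1 start was the strongest (chr3:130820884-130821910, 1027 bp, 8.4 kb from the start, fold enrichment 9.81, rank 15194 of 38032). It lay within the strongest new H3K27ac region of the second library at 24 h. Next came the one upstream of Axin2 (chr11:108759057-108759474, 418 bp, fold enrichment 8.24, rank 17352), which spanned the gap between the H3K27ac pair described above and reached into its second member. At Sp5 new regions lay 30.9 kb upstream (chr2:70281888-70282361, 474 bp, rank 23316), 18.5 kb upstream (chr2:70294267-70294681, 415 bp, rank 26414) and 1.6 kb upstream (chr2:70311264-70311473, 210 bp, rank 33932). All 3 overlapped an H3K27ac region at 24 h. With regions within 500 bp counted as overlapping, 1 of the 9 Sp5 regions was new, where 26.2% of the list was. With a −log10 q of at least 5 it was 5 of 9, where 26.9% of the list was. At equal length it was also 5 of 9, against 29.3%. The other 4 Axin2 regions, of 200 to 258 bp, lay 26.4, 13.6 and 2.7 kb upstream and 20.5 kb downstream, ranked between 32680 and 35302, and met no H3K27ac region in any list.

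The loci differed in how new H3K27ac at 24 h lay on listed open chromatin. It overlapped an ATAC-seq region of 48 h in 13 of 24 cases (Axin2 1 of 9, Sp5 7 of 10, Lef1 5 of 5), where 65.2% of all new H3K27ac regions did. These counts require an overlap of 1 bp. The Axin2 region chr11:108758168-108759050 ended just short of the open region that began at 108759057, and was not counted. For the ATAC-seq list of 0 h the count was 8 of 24 (Axin2 1, Sp5 5, Lef1 2), where 58.4% did. In all, 6 of the 28 regions in the first library at 24 h met no ATAC-seq region of any list (Axin2 4 of 10), where 17.3% of that list did, and 7 of the 28 in the second (Axin2 4 of 10), where 15.9% did.

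Merging the ATAC-seq regions of the 7 lists gave 53 elements, with 25 at Axin2, 12 at Sp5 and 16 at Lef1. In EpiSCs 13 were open at both times, 8 at 48 h alone (Axin2 5, Sp5 2, Lef1 1) and 2 at 0 h alone, and 30 were listed in embryos alone (Axin2 16, Sp5 4, Lef1 10). Among the 112174 elements of the whole genome built the same way, 23.9% were open at both times, 9.05% at 48 h alone, 12.1% at 0 h alone and 54.9% in embryos alone, where the 3 windows had 24.5%, 15.1%, 3.77% and 56.6%. In all, 7 elements were in every list (Axin2 1, Sp5 3, Lef1 3), which is 13.2% against 15.4% of the genome's elements. Of the 30 listed in embryos alone, 17 were in a single list (32.1% of all 53 elements, against 32.5% in the genome) and 5 in all 5 (9.43% against 1.65%). Those 5 lay 29.1 and 10.9 kb upstream and 41.1 kb downstream of the Axin2 start (chr11:108752453-108753386, chr11:108770695-108771512 and chr11:108822892-108823369), 23.4 kb downstream of the Sp5 start (chr2:70336032-70336711) and 46.2 kb downstream of the Lef1 start (chr3:130858588-130859729). Of these the Axin2 element at 41.1 kb carried H3K27ac in stimulated EpiSCs at 24 h, in both libraries, and the other 4 met no listed mark. The Lef1 element lies about as far from the start as the last of the 4 RefSeq starts lies from the first. That last entry is at chr3:131156044-131156293 in GRCm38.p6 and holds the TCF/LEF core. Whether the element is a promoter of Lef1 was not tested, since the builds were not aligned.

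Some of the elements that opened in EpiSCs at 48 h were open in embryos too. Of the 9 new regions, 3 and 6 were in the 2 E6.0 lists, where 22.7% and 26.8% of all new regions were, and 5 and 7 in the E7.2 lists, where 17.5% and 50.1% were. In the posterior E7.5 list 5 of 9 were present, where 43.7% of all new regions were. The Lef1 element 8.4 kb downstream and the Axin2 element 22.8 kb upstream shared one pattern. Both were in the second E6.0 list, both E7.2 lists and the posterior E7.5 list, and not in the first E6.0 list. The Sp5 element 18.5 kb upstream was in all 5 embryo lists. The Axin2 elements 2.7 kb upstream and 20.5 kb downstream were in 0 embryo lists.

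Between embryonic stages few regions changed in both replicates. Of the 30 regions shared by both E7.2 lists, 1 met neither E6.0 list (chr11:108791991-108792170, 10.1 kb downstream of the Axin2 start), where 3.61% of all shared regions did, and that site was open in EpiSCs at both times. Of the 24 shared by both E6.0 lists, 3 met neither E7.2 list, where 13.2% did. They were chr11:108769879-108770274 and chr11:108836936-108837231 at Axin2 and chr3:130930982-130931235 at Lef1. Without the first E7.2 replicate, whose list held 33881 regions against 72433 in the second, the gain rose to 10 of 40 regions, where 28.4% of all did. Without the first E6.0 replicate the loss was 11 of 39, where 26.5% of all were lost. Within the folder of both first replicates 7 of 32 regions were gained, where 10.3% of all were, and 9 of 27 lost, where 50.4% were. Within the folder of both second replicates 11 of 40 were gained, where 36.2% of all were, and 12 of 39 lost, where 27.4% were.

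The spread between embryo libraries was wide. Listed regions covered 7286 and 7154 bp at E6.0, 3264 and 8032 bp at E7.2 and 4665 bp in the posterior E7.5 library at Axin2. They covered 4885 and 6220 bp, 3644 and 6170 bp, and 3459 bp at Sp5 in the same order. They covered 8592 and 12471 bp, 4315 and 8394 bp, and 5254 bp at Lef1. The 2 replicates of each stage came from different folders, and each folder held the same replicate number of both stages. Within both folders Lef1 was covered less at E7.2 than at E6.0. Sp5 was covered less at E7.2 in the first folder and nearly equally in the second (6220 and 6170 bp). Axin2 was covered less at E7.2 in the first and more in the second. Over the genome the lists covered 33.7 and 35.1 Mb at E6.0, 16.6 and 35.1 Mb at E7.2 and 22.6 Mb in the posterior E7.5 library.

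**Figure D3:**
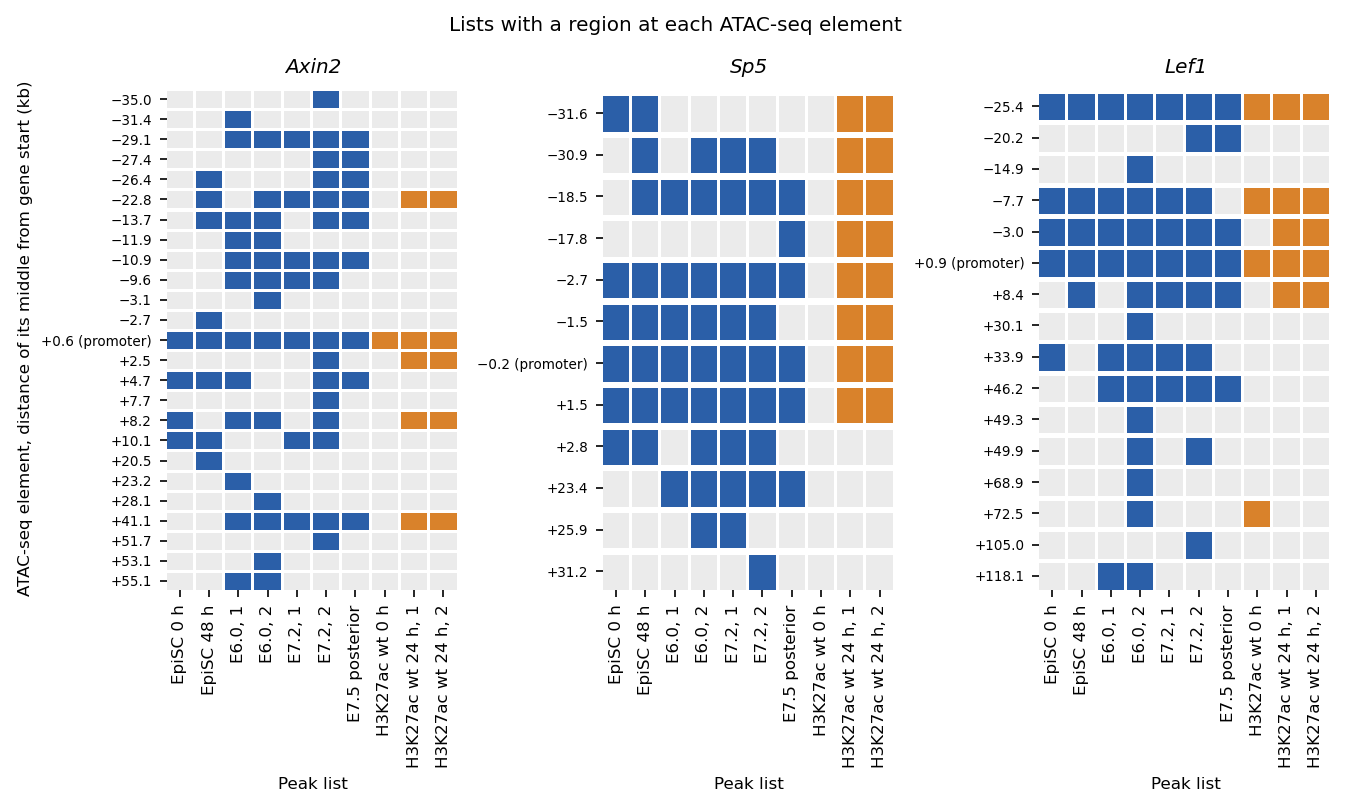
The 53 ATAC-seq elements of the 3 windows (rows, by the distance of their middle from the gene start in kb, minus for upstream) against the 7 ATAC-seq lists and the 3 H3K27ac lists of wild-type cells (columns; a number after a comma is the replicate); a filled box means that the list holds a region overlapping the element. The Lef1 element 8.4 kb downstream and the Axin2 element 22.8 kb upstream fill the same ATAC-seq columns, and among the ATAC-seq columns 30 elements are filled in embryos alone. Of these 30 elements, 4 are also filled in an H3K27ac column.

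**Figure D4:**
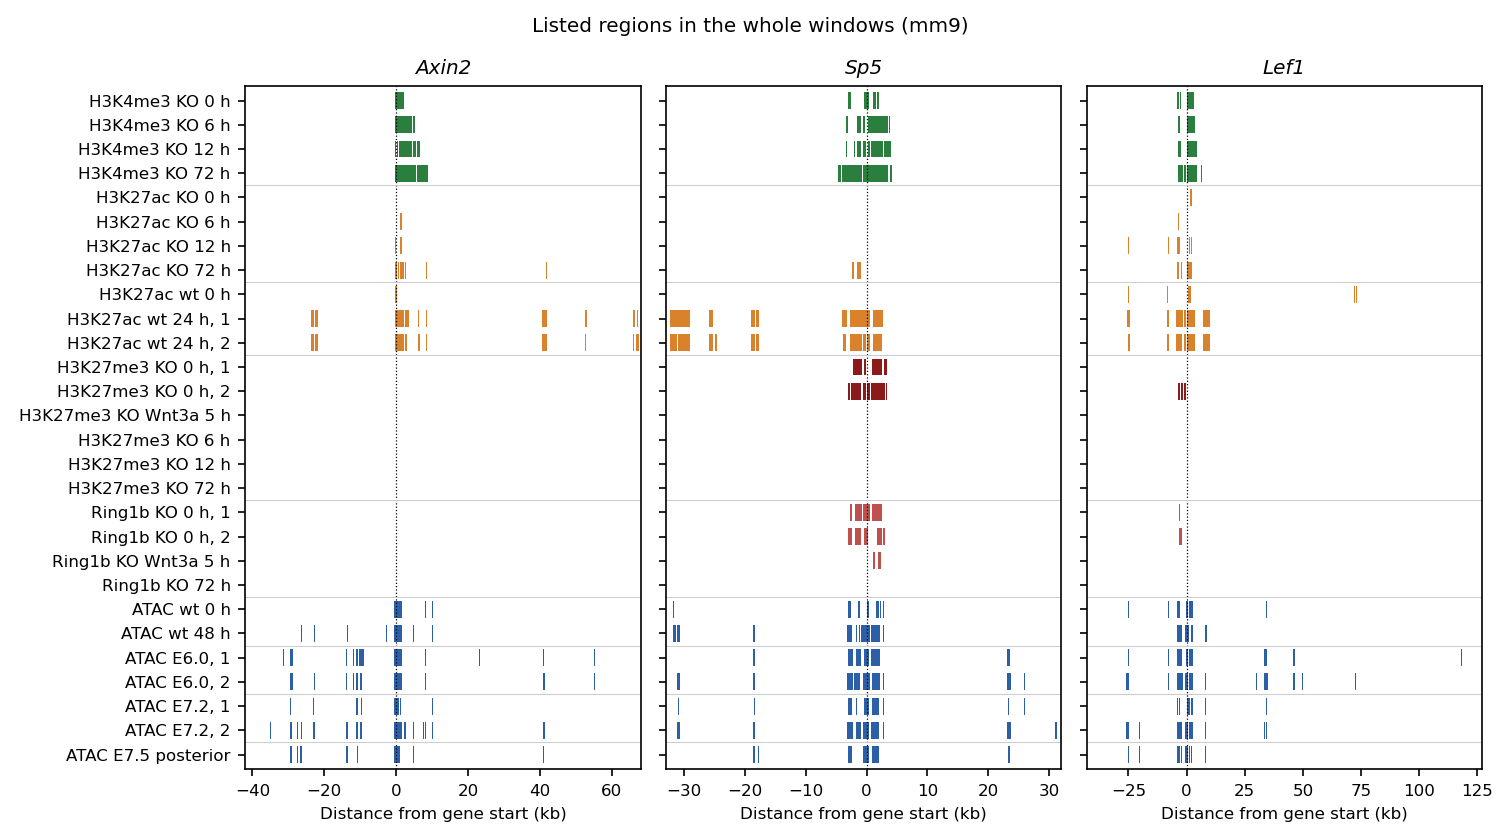
Listed regions over the whole window of each locus, in kb from the gene start, with lists as rows and regions as bars coloured by mark (KO, Wnt3KO; wt, wild type; a number after a comma is the replicate). The plot leaves out the wild-type H3K4me3 pair with conflicting labels. In the lists shown, H3K4me3, H3K27me3 and Ring1b lie near the starts, while H3K27ac and ATAC-seq reach distal positions. In wild-type cells H3K27ac lies up to 67.2 kb downstream of the Axin2 start at 24 h and 73.0 kb downstream of the Lef1 start at 0 h. In Wnt3KO cells it reaches 25.0 kb upstream of the Lef1 start at 12 h and 41.7 kb downstream of the Axin2 start at 72 h.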

How the data were processed

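The authors deposited 1 list of peaks for each of 32 libraries (23 ChIP-seq, 2 input, 7 ATAC-seq) in mm9, and the 25 4C-seq samples were not analysed here. Per the submitters' processing notes, ChIP-seq used Bowtie 1.1.0, SAMtools 0.1.19 and MACS2 2.1.0, and ATAC-seq used cutadapt 1.8.1, Bowtie2 2.1.0, SAMtools and MACS2. For the wild-type H3K27ac libraries at 24 h and the wild-type H3K4me3 pair, tools were not given in the sources used here. The deposited fold enrichment is a ratio over local background, from the authors' peak caller. The deposited −log10 p-value and −log10 q-value come from the same caller, and the lowest −log10 p was 5.00. The deposited score was not used. Folds and ranks describe regions within a list, and ranks set side by side from different lists show no change.

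A region counted as gained or lost when it shared less than 1 bp with every list it was set against. Where a group had 2 libraries, regions of the first that overlapped the second were used. Overlaps were computed with Python 3.11.15, pandas 2.3.3 and numpy 2.4.6 by code tested on simulated data. No p-values were computed, since most groups have 1 library and the loci, windows, motifs and lists were chosen with earlier results of these data known. The text names, for the 3 genes, the promoter element, every open region gained or lost at 48 h, the H3K27ac regions gained or lost in wild-type cells at 24 h, and the Polycomb regions. The comparisons of H3K27me3 at 6 and 12 h and of both marks after Wnt3a, the covered length, the H3K4me3 width and the embryo comparison within folders were added after seeing the data. The folder names inside the peak names put the lists in 7 processing folders, which were treated as batches. Other genes of the pathway were not analysed, since no mm9 annotation was used here. Alternatives were other overlap rules, a −log10 q of at least 5, lists of equal length (the strongest regions up to the shortest list) and each replicate left out.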

Additional observations from a re-analysis of the deposited data

Results flagged for a closer look

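A pair of wild-type H3K4me3 libraries entered no comparison, because their titles and their stimulation labels disagree on which was stimulated with CHIR99021 for 72 h. Both held signal in the 3 windows, where the input libraries held 0 regions. The library titled 0 h listed 8 regions and the library titled 72 h listed 7.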

How the results depend on the processing

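Over the 3 windows, 55 counts of gained or lost regions under an alternative stayed within 1.5 times the value reported, and 13 did not. With lists of equal length, H3K27ac gained at 24 h went from 24 to 13, Ring1b lost at 72 h from 6 to 0 (0 regions were left to compare) and open regions gained in E7.2 embryos from 1 to 2. These follow from fewer regions entering the lists. With each replicate left out in turn, H3K27me3 lost at 72 h ranged from 5 to 10 (10 of 10 without replicate 1, against 70.2% of all regions). Open regions gained in embryos ranged from 1 to 10 (10 of 40 without E7.2 replicate 1, against 28.4%, and 5 of 30 without E6.0 replicate 2, against 8.26%). Open regions lost ranged from 3 to 11 (11 of 39 without E6.0 replicate 1, against 26.5%, 5 of 27 without E6.0 replicate 2, against 22.5%, and 6 of 24 without E7.2 replicate 2, against 38.4%). Within folders, chosen after seeing the data, the gain was 7 and 11 and the loss 9 and 12 (first and second replicates). The cause of the embryo spread was not tested. For single loci and comparisons added later, 251 counts stayed and 49 moved. Of the covered lengths, 139 stayed within the spread of the nearest pair of replicates and 29 moved.

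No paired analysis was possible because the results come from no test. Labels give no shared culture, litter or day for equal replicate numbers, although in the embryos equal numbers share a processing folder. Lists without read counts set no limit on absent regions, and most groups have 1 library.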

Other observations

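In the pair of wild-type H3K4me3 libraries with conflicting labels, the Axin2 promoter region was 3186 bp long in the library titled 0 h (chr11:108781385-108784570) and 4096 bp in the library titled 72 h (chr11:108781552-108785647), which listed a second region of 1467 bp downstream of it. At Sp5 the library titled 0 h listed 3 regions of 578 to 1198 bp, and the library titled 72 h listed 2, one of 5056 bp (chr2:70311209-70316264) over the start. The library titled 0 h also listed 384 bp 25.1 kb upstream of Lef1 (chr3:130787730-130788113), which the library titled 72 h did not. At Lef1 the promoter region was 3104 bp long in the first and 4459 bp in the second. The median region length over the genome was 1448 bp in the first and 1382 bp in the second. These values are given by title and are not assigned to a condition.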
